A study of Arabidopsis thaliana with 8 samples.

Results

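The transcripts of vegetative shoot apices were compared between the serrate mutant se-1 and its wild type, Col-0, of Arabidopsis thaliana. The comparison rests on 4 of the 8 arrays of the series: 2 of se-1 and 2 of Col-0, chosen by their genotype labels. All apices came from 20-day-old plants grown in short days, and each sample was hybridized to an Affymetrix ATH1 array, on which a probe set is a group of short oligonucleotides for a transcript. The 22746 probe sets other than the array's controls are described, of which 15922 were bright enough to be tested. The other 4 arrays, 2 of the argonaute1 mutant ago1-27 and 2 of se-1 p35S::MIR156, served to estimate the spread and to show where se-1 stands apart. In se-1 p35S::MIR156 the se-1 plants also carry a transgene that makes the microRNA miR156 under the 35S promoter of a plant virus, which is active in most tissues.

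SERRATE (SE) is a zinc-finger protein of the nucleus that works with the DICER-LIKE1 enzyme to cut microRNAs from their precursors, and it also takes part in the splicing of messenger RNAs. MicroRNAs, carried by ARGONAUTE1 (AGO1), lower the transcripts of their targets, many of which are transcription factors that set leaf polarity and the time of the change from juvenile to adult leaves and to flowering. The allele se-1 keeps part of the gene's function, and its plants have serrated leaves. Loss of all SE function is lethal to embryos, so the comparison concerns a partial loss. The labels do not say whether replicates came from separate plants or pools, so each p-value is set against the spread of these arrays alone, which may be technical.

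The deposited signals are linear intensities scaled by the authors to a common 2% trimmed mean of 200.02 on each array. Median signals were 76.6 and 79.7 in Col-0 and 81.5 and 82.0 in se-1. The correlation of replicate arrays across probe sets, which are not independent replicates, was 0.980 in Col-0 and 0.979 in se-1. Background was set at the highest of the bacterial control probe sets on each array, at 17.1 and 25.6 in Col-0 and 18.0 and 30.2 in se-1. The 3' to 5' ratio of the actin controls, which rises as RNA degrades or labelling falls short, was 3.91 and 2.81 in Col-0 and 2.97 and 4.22 in se-1, so the groups overlapped. Of 10 markers of the shoot meristem and its boundaries only 2 had a probe set with a listed gene. CLV3, a signalling peptide of the central stem cells, was within background on all 4 arrays, and LAS, a boundary gene, lay between 28.5 and 41.2. The label of the tissue was therefore hardly testable. The photosynthesis genes RCA, PRK and LHCB4.1, which mark green leaf tissue, summed to between 6970 and 7376 in Col-0 and to between 6353 and 6374 in se-1, and the largest change among them, of LHCB4.1, was -0.30 (adjusted p = 0.457). The flower marker UFO, 1 of 10, was within background, and the epidermal markers TRY and FMA, 2 of 10 vascular and epidermal genes, summed to between 40.7 and 52.5 in Col-0 and 51.0 and 56.5 in se-1.

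In se-1, 118 probe sets were higher and 55 lower than in Col-0, 173 of 15922 in all. These calls are 1.09% of the probe sets tested (0.741% higher and 0.345% lower), and a call here means a Benjamini-Hochberg adjusted p under 0.05 in a limma fit to log2(signal + 16) over all 8 arrays. Called rises lay between 0.79 and 2.34 on that log2 scale, with a median of 1.15, and called falls between -0.74 and -4.31, with a median of -1.24. The change was at least 2-fold for 131 (0.823%). The median over all tested probe sets was 0.02, and 1910 of them (12.0%) had an unadjusted p under 0.05, the share to set beside such counts in the gene lists. In 6833 probe sets (42.9%) the se-1 arrays did not overlap the Col-0 arrays, so non-overlap alone says little with 2 arrays a group. Changes were spread over the range of levels: split into 3 equal parts by mean level, 39 of the dim probe sets (0.735%), 77 of the middle ones (1.45%) and 57 of the bright ones (1.07%) were called. In whole apices, fewer cells of a type and less RNA per cell cannot be told apart. The count fell to 32 when Col-0 replicate 1 was left out, to 83 when Col-0 replicate 2 was, to 89 when either se-1 array was, and to 68 with dim probe sets kept.

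**Figure D1:**
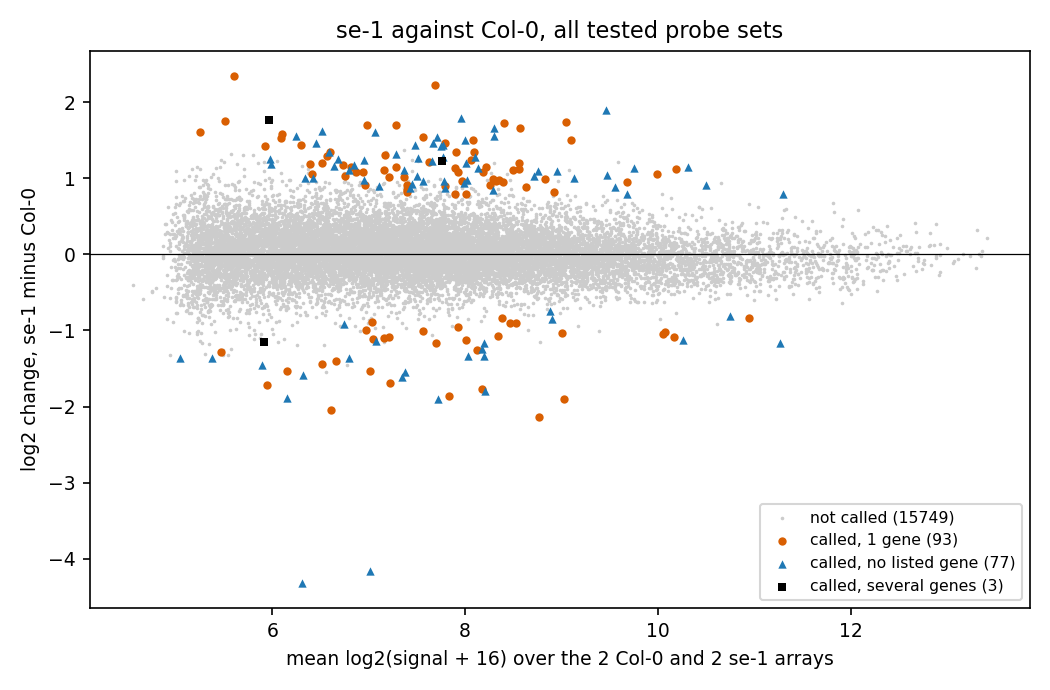
Each point is a tested probe set, with its mean log2(signal + 16) over the 2 Col-0 and 2 se-1 arrays on the horizontal axis and its log2 change in se-1 against Col-0 on the vertical axis. The 173 called probe sets are coloured by whether the annotation lists 1 gene (93), several (3) or none (77), and the largest changes are a pair of falls beyond -4 in probe sets with no listed gene.

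The annotation used here gives 1 gene for 8822 of the tested probe sets, of which 93 were called (1.05%), 62 higher and 31 lower. Of the 6785 tested probe sets with no listed gene, 77 were called (1.13%), 54 higher and 23 lower. The share called was therefore close in both, and close to the 1.09% of all. By rule, the 20 largest rises and 20 largest falls with 1 gene and non-overlapping se-1 and Col-0 arrays are named, with called members of the gene lists. Of these 47 called genes, 17 kept their call without each array in turn and under every alternative that tested them, 11 higher and 6 lower. The other 30 lost it without at least 1 array.

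The largest rise with a listed gene was that of AT5G24240, which gave 6.79 and 4.38 in Col-0 and 72.8 and 118 in se-1. Its Col-0 signals were within background, so it was at least 4.43-fold higher in se-1 (adjusted p = 0.00140). CYP71B22, a cytochrome P450 gene, gave 105 and 59.7 in Col-0 and 304 and 607 in se-1. Its log2 change was 2.22 (SE 0.283, adjusted p = 0.00101). AT4G18280 gave 264 and 280 in Col-0 and 939 and 954 in se-1, with replicates closer to each other than in CYP71B22. Its log2 change of 1.74 (SE 0.165) had an adjusted p of 8.12e-05.

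Other rises were found in genes of known function. The serine carboxypeptidase-like gene scpl31 gave 309 and 311 in Col-0 and 743 and 1110 in se-1 (log2 change 1.50, adjusted p = 0.00110). ATSBT5.2, a protease gene of the subtilase family, gave 46.0 and 63.4 in Col-0 and 238 and 189 in se-1 (log2 change 1.70). PSF2, which encodes a subunit of the GINS complex that helps unwind DNA at replication forks, gave 128 and 141 in Col-0 and 399 and 334 in se-1. Its log2 change was 1.34 (SE 0.193, adjusted p = 0.00205). HTR12, the centromeric histone gene and the only member of the dividing cell markers that was listed, gave 149 and 189 in Col-0 and 171 and 159 in se-1, and its groups overlapped. Without Col-0 replicate 1 the calls of ATSBT5.2 and PSF2 ended, with adjusted p of 0.0535 and 0.0537.

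Of the rises in genes whose function the reference table does not give, AT1G13880 went from 163 and 178 to 550 and 658, a log2 change of 1.73. AT3G53980 had a log2 change of 1.67, AT3G48200 of 1.50, AT3G56830 of 1.46 and AT3G17770 of 1.34. The calls of these 5 genes, and those of AT5G24240, CYP71B22, AT4G18280 and scpl31, held without each array in turn and under the other settings that tested them. AT5G52790, AT3G05400, AT4G34140, AT1G61400 and AT2G32150 rose by 1.35 to 1.58. AT2G22340 was within background in Col-0 and at least 2.35-fold higher in se-1. The calls of these 6 genes ended with dim probe sets kept and without at least 3 of the 4 arrays in turn, with adjusted p between 0.0508 and 0.361. AT5G52790 and AT1G61400 had 1 Col-0 array within background, so their values depend on the constant added before the logarithm.

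**Figure D2:**
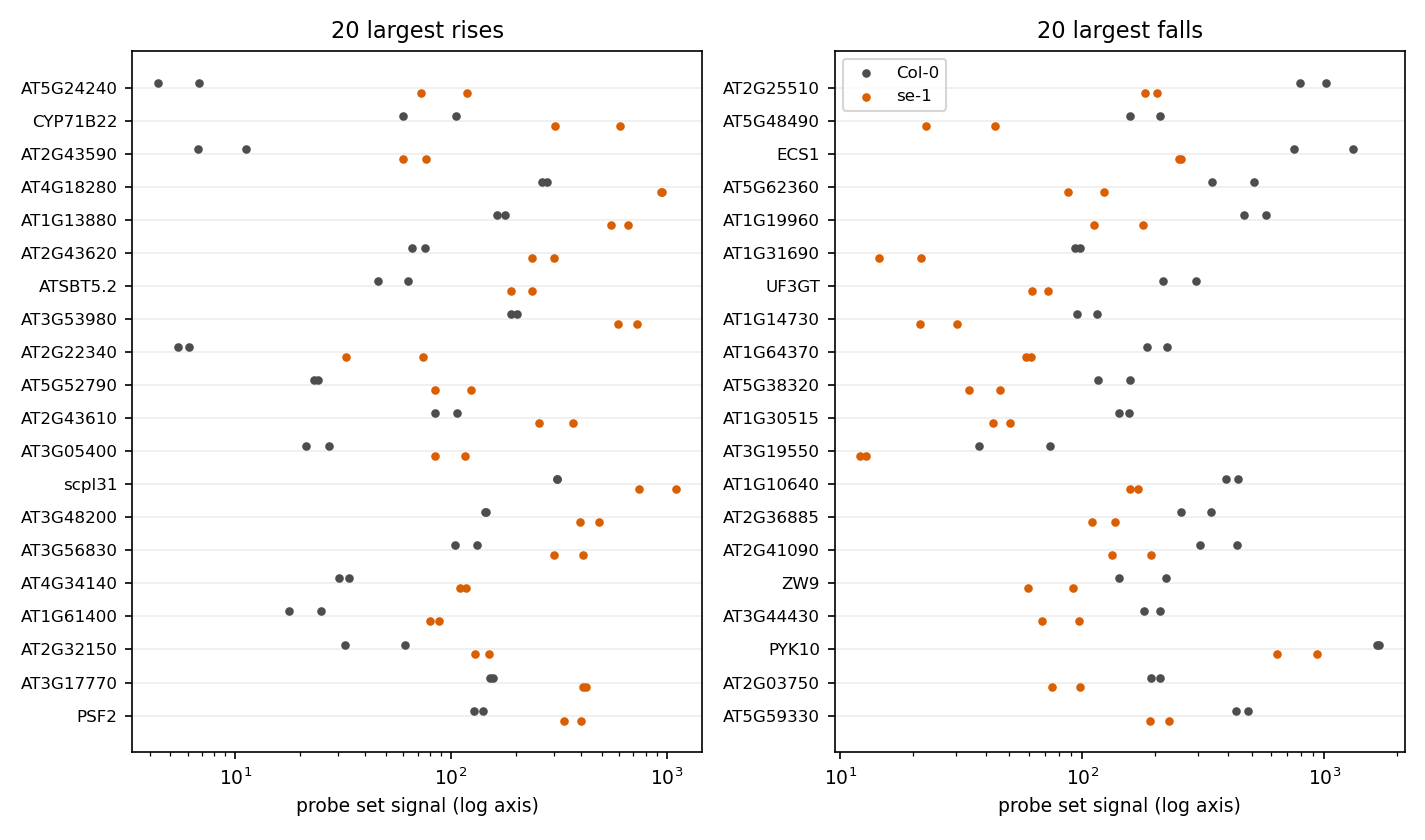
Signals on a log axis of the 20 genes with the largest called rises and the 20 with the largest called falls in se-1, with 1 point for each of the 2 Col-0 and 2 se-1 arrays. In each gene the se-1 points lie on 1 side of both Col-0 points, which the rule required, and the distance between replicate points shows the spread within a group.

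Further called genes of known function were chosen after their values were seen. RBL (REBELOTE), which acts in the arrest of the floral meristem, gave 274 and 341 in Col-0 and 620 and 623 in se-1 (log2 change 0.99, adjusted p = 0.0190). QQT2, which is needed for the first divisions of the embryo, gave 200 and 211 in Col-0 and 467 and 383 in se-1 (0.99, adjusted p = 0.0121). RHF1A, a RING-type ubiquitin ligase gene that acts in gamete formation, gave 61.4 and 92.1 in Col-0 and 212 and 208 in se-1 (1.31, adjusted p = 0.00718). All 3 had se-1 arrays above both Col-0 arrays, and in 42.9% of all probe sets the groups lay apart in 1 direction or the other. THI2.2, a thionin gene, rose by 1.11 and GPDHC1, a cytosolic glycerol-3-phosphate dehydrogenase gene, by 0.81. The calls of these 5 genes ended without at least 3 of the 4 arrays in turn, with adjusted p between 0.0535 and 0.289.

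A run of neighbouring genes rose together on chromosome 2. AT2G43590, AT2G43600, AT2G43610 and AT2G43620 follow each other in the reference order of genes, and they are known as members of the chitinase family, enzymes that cleave the chitin of fungal walls. AT2G43590 gave 6.73 and 11.2 in Col-0, both within background, and 76.8 and 60.1 in se-1, so it was at least 3.24-fold higher. AT2G43600, chosen after its values were seen, gave 51.0 and 38.1 in Col-0 and 130 and 116 in se-1 (log2 change 1.2, SE 0.232, adjusted p = 0.0172).

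AT2G43610 gave 106 and 84.3 in Col-0 and 256 and 369 in se-1 (log2 change 1.54, adjusted p = 0.00214). AT2G43620 gave 76.1 and 65.6 in Col-0 and 236 and 299 in se-1 (log2 change 1.70, adjusted p = 0.00101). In all of these genes both se-1 arrays lay above both Col-0 arrays, which the naming rule required of all but AT2G43600. The genes on either side did not pass the test: CHI (AT2G43570), a chitinase gene, had a log2 change of 0.40 (adjusted p = 0.594), AT2G43630 of -0.07 and AT2G43640 of -0.63 (adjusted p = 0.118). AT2G43580, between CHI and the run, was within background on all 4 arrays. The chitinase genes can share sequence, and whether a probe set reads its neighbours' transcripts was not tested. The call of AT2G43590 ended when replicate 1 of either genotype was left out (adjusted p of 0.0529 and 0.0570). That of AT2G43600 ended whichever array was left out and with dim probe sets kept (adjusted p between 0.0776 and 0.153). Those of AT2G43610 and AT2G43620 held.

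**Figure D3:**
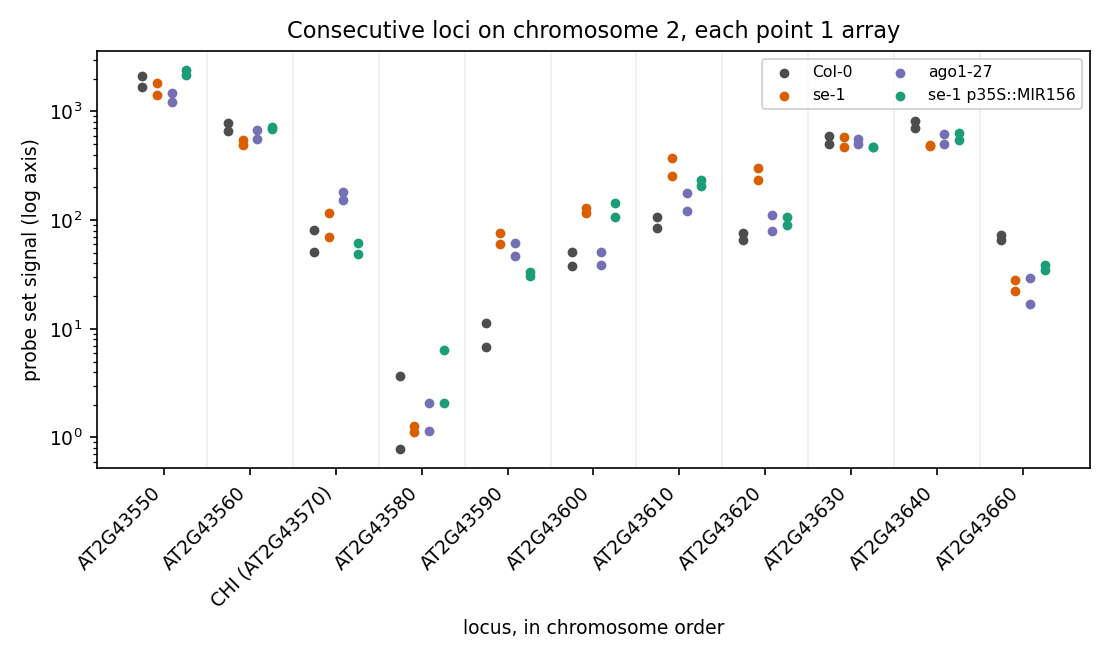
Signals on a log axis of the genes around AT2G43590 to AT2G43620, in chromosome order, with 1 point per array for the 4 genotypes. The se-1 points lie above the Col-0 points at these 4 loci and not at AT2G43630, and AT2G43580 lies within background throughout.

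Among 3088 pairs of adjacent genes with both tested, 53 held at least 1 called gene and 4 held 2. The run above makes up 3 of these pairs, all in 1 direction. In the remaining pair the genes moved in opposite directions. AT1G10640 gave 390 and 440 in Col-0 and 171 and 158 in se-1 (log2 change -1.26, adjusted p = 0.00852). Its neighbour AT1G10650, chosen after its values were seen, gave 163 on both Col-0 arrays and 382 and 290 in se-1 (0.96, adjusted p = 0.0228). Both calls ended with dim probe sets kept and without 3 of the 4 arrays in turn, with adjusted p between 0.0616 and 0.214.

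The largest fall with a listed gene was that of AT2G25510, from 1017 and 790 in Col-0 to 181 and 203 in se-1 (log2 change -2.14, SE 0.261, adjusted p = 0.000750). AT5G48490 gave 158 and 209 in Col-0 and 43.5 and 22.6 in se-1. ECS1 gave 751 and 1310 in Col-0 and 255 and 252 in se-1, and its replicates differed more in Col-0 than in se-1. These 3 genes were lower on both se-1 arrays than on both Col-0 arrays, which the naming rule required. AT5G62360 gave 514 and 343 in Col-0 and 87.2 and 123 in se-1, and AT1G19960 gave 464 and 576 in Col-0 and 177 and 111 in se-1. AT1G31690 fell by 1.72, to 21.6 and 14.5, and as in AT5G48490 1 of its se-1 arrays was within background. The calls of AT2G25510, AT5G48490, AT5G62360, AT1G19960 and AT1G31690 held under every alternative that tested them, and that of ECS1 ended without Col-0 replicate 2 (adjusted p = 0.0525).

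The other falls were smaller. AT1G14730, AT1G64370, AT5G38320 and AT1G30515 fell by 1.40 to 1.53. AT2G36885, AT2G41090, ZW9, AT3G44430, AT2G03750 and AT5G59330 fell by 1.07 to 1.17. AT3G19550 was within background in se-1 and at least 2.25-fold lower than in Col-0. Each of these calls ended without Col-0 replicate 1, some also under other settings, and the adjusted p where they ended lay between 0.0563 and 0.497. GTR2, a transporter of glucosinolates, the sulphur-containing defence compounds of this plant family, gave 486 and 382 in Col-0 and 221 and 247 in se-1. AT4G13840, named CER26 in the reference table and known for its part in making leaf waxes, gave 464 and 473 in Col-0 and 236 and 250 in se-1. Both were chosen after their values were seen, and their calls (adjusted p of 0.0430 and 0.0353) ended whichever array was left out.

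PYK10, a beta-glucosidase of the ER bodies that is abundant in roots, was the only tested member of the root markers. It gave 1648 and 1678 in Col-0 and 639 and 933 in se-1 (log2 change -1.09, adjusted p = 0.0455). The root markers with a listed probe set, 2 of 8, summed to between 1650 and 1682 in Col-0 and between 642 and 943 in se-1, nearly all of it PYK10. EXPA7, the root hair expansin, was within background on all 4 arrays. The call of PYK10 ended when any array other than se-1 replicate 2 was left out and under 5 other settings, with adjusted p between 0.0512 and 0.296. The part of root tissue in it was not tested.

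The largest changes of all were found in probe sets for which no gene is listed, and which are given by their array identifier. Probe set 250476_at gave 393 and 288 in Col-0 and 1.91 and 1.64 in se-1. Probe set 254551_at gave 508 and 557 in Col-0 and 17.1 and 12.4 in se-1. Both were thus among the clearly detected transcripts of the wild type and within background in se-1, at least 14.5-fold and at least 22.8-fold lower (adjusted p of 3.46e-08 and 1.52e-06). They were also within background or near it in se-1 p35S::MIR156, at 4.80 and 6.81 for 250476_at and 2.29 and 21.5 for 254551_at, and bright in ago1-27, at 856 and 798 and at 273 and 350.

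The largest rises without a listed gene were those of 249741_at, from 301 and 402 to 1247 and 1437, and of 266313_at, from 129 and 108 to 438 and 455. Their log2 changes were 1.90 and 1.79. The calls of these 4 probe sets held without each array in turn and under the other settings that tested them.

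The SE probe set itself gave 128 and 135 in Col-0 and 117 on both se-1 arrays. The log2 change was -0.15 (SE 0.195, adjusted p = 0.839). Where this probe set lies relative to the se-1 lesion is not given in the sources used here, so it neither checks nor contradicts the genotype labels. Of 33 genes of the small RNA machinery only 5 had a listed probe set, and of the 4 tested, 0 were called by limma and 0 had an unadjusted p under 0.05. Their median was 0.20. TGH, a nuclear protein that helps DICER-LIKE1 at precursors, gave 144 and 134 in Col-0 and 185 and 188 in se-1 (log2 change 0.39, adjusted p = 0.427). AGO7, the partner of miR390, gave 53.4 and 81.3 in Col-0 and 69.9 and 98.8 in se-1, and its groups overlapped. DDL, which stabilises precursors, had a log2 change of 0.13.

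Few targets of microRNAs had a listed probe set in the annotation used here. None of the 11 SPL genes targeted by miR156, which promote adult leaf traits and flowering, had a listed probe set, so they are not analysed here. Of 71 targets of other microRNAs 9 were tested, and 0 were called by limma, with 2 at an unadjusted p under 0.05 (12.0% of all probe sets). Their log2 changes ran from -0.80 to 0.60 with 6 above 0, and the median was 0.23, beside 0.02 over all probe sets. LCR, an F-box gene targeted by miR394, gave 286 and 323 in Col-0 and 436 and 502 in se-1 (0.60, adjusted p = 0.144). PHV, a leaf polarity gene targeted by miR165 and miR166, gave 322 and 426 in Col-0 and 551 and 561 in se-1 (0.57, adjusted p = 0.292). In both genes the se-1 arrays lay above the Col-0 arrays, as in 42.9% of all probe sets in 1 direction or the other.

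A further list held targets of trans-acting siRNAs, a second class of small RNA through which microRNAs act, together with pentatricopeptide repeat genes. The latter made up most of it. Of 22 listed, 6 were tested and 0 were called by limma, with 2 at an unadjusted p under 0.05 (12.0% of all probe sets). Their median was 0.38, beside 0.02 over all probe sets. AT1G63080 gave 62.0 and 33.4 in Col-0 and 90.3 and 88.2 in se-1 (0.76, adjusted p = 0.186). AT1G63150 gave 35.6 and 38.5 in Col-0 and 63.9 and 71.1 in se-1 (0.65), and AT1G62860 gave 55.6 and 56.2 in Col-0 and 81.5 and 81.4 in se-1 (0.44). The log2 changes of the rest were 0.31 for AT5G16640, -0.05 for AT1G62680 and -0.08 for AT1G64580. These genes are close relatives, and a probe set may read several of them. The leaf polarity genes YAB5 and YAB3, which promote the lower side of the leaf, had log2 changes of 0.51 and 0.37. With PHV they were the 3 tested of 14, and 0 were called by limma, with 2 at an unadjusted p under 0.05 (12.0% of all probe sets).

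Of the flowering promoters, 18 in the list, 6 were tested and LD was called. An unadjusted p under 0.05 was found for 3 of the 6 (12.0% of all probe sets). LD, a nuclear protein of the autonomous pathway, which lowers the floral repressor FLC, gave 127 and 168 in Col-0 and 265 and 307 in se-1. Its log2 change was 0.90 (SE 0.196, adjusted p = 0.0376), and the call ended whichever array was left out and under 3 other settings (adjusted p between 0.0567 and 0.403). AGL42, a MADS-box gene of the SOC1 clade, gave 67.2 and 60.1 in Col-0 and 134 and 138 in se-1, and missed the threshold (log2 change 0.94, adjusted p = 0.0885). FD, the bZIP partner of the florigen FT, had a log2 change of 0.52 (adjusted p = 0.403) and AGL24 of -0.32. The median of the 6 was 0.29.

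Of 21 flowering repressors 4 were tested, with 0 called by limma and 1 at an unadjusted p under 0.05 (12.0% of all probe sets). Their median was 0.08. AGL18 gave 100.1 and 114 in Col-0 and 155 and 169 in se-1 (0.54, adjusted p = 0.264). SMZ and SNZ, AP2-like repressors that miR172 targets, had log2 changes of 0.30 and -0.80 (adjusted p of 0.702 and 0.426). SNZ gave 24.7 and 48.7 in Col-0 and 27.1 and 4.13 in se-1, so its groups overlapped, and 1 se-1 array was within background. Of 23 clock genes only GI, which links the clock to day length, was tested. It gave 388 and 534 in Col-0 and 573 and 653 in se-1 (0.41, adjusted p = 0.410). FLC, FT, SOC1, CCA1 and LHY are among the genes of these lists that no listed probe set covers, and they are not analysed here.

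**Figure D4:**
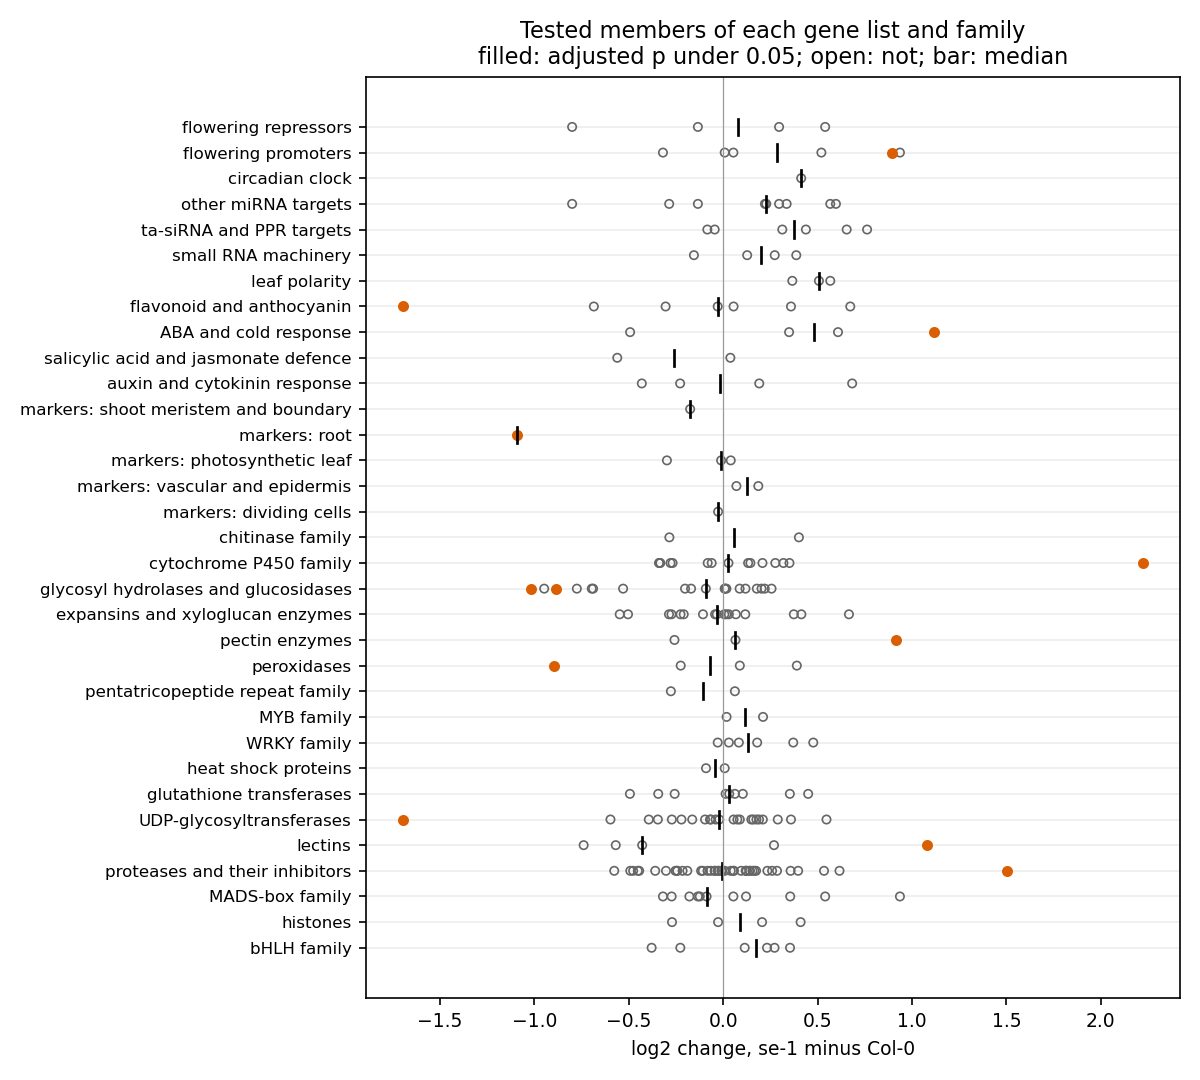
Each point is a tested member of a gene list, marker list or family, placed by its log2 change in se-1 against Col-0, filled where the adjusted p was under 0.05 and open where not, with a bar at the list's median. Most lists have their members on both sides of 0, and none has more than 2 filled points.

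Of 22 flavonoid and anthocyanin genes all 7 with a listed probe set were tested, and 1 was called. An unadjusted p under 0.05 was found for 3 of the 7 (12.0% of all probe sets). UF3GT, which adds xylose to anthocyanins, the red and purple pigments, gave 216 and 295 in Col-0 and 72.5 and 61.9 in se-1. Its log2 change of -1.70 (SE 0.233, adjusted p = 0.00142) held under every alternative. DFR, an earlier enzyme of the same branch, gave 771 and 911 in Col-0 and 636 and 417 in se-1 (-0.69, adjusted p = 0.232). CHIL, which aids the first steps of the pathway, moved the other way, from 113 and 171 to 290 and 185 (0.67, adjusted p = 0.233). The list's median was -0.03, with 3 of 7 above 0.

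Of 20 ABA and cold response genes 4 were tested, and COR15A was called. An unadjusted p under 0.05 was found for 3 of the 4 (12.0% of all probe sets). COR15A, a chloroplast protein induced by cold, gave 662 and 910 in Col-0 and 2044 and 1420 in se-1 (1.12, SE 0.250, adjusted p = 0.0430). Its relative COR15B had a log2 change of 0.61 (adjusted p = 0.487), and the dehydrin genes COR47 and LTI30 of 0.35 and -0.49. The call of COR15A ended when any array other than se-1 replicate 2 was left out, and under 4 other settings (adjusted p between 0.0512 and 0.423).

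The tested members of the hormone and defence lists gave 0 calls by limma. Of 15 salicylic acid and jasmonate defence genes 2 were tested, 1 of them at an unadjusted p under 0.05 (12.0% of all probe sets). AT5G03350, a lectin gene, had a log2 change of -0.56 (adjusted p = 0.346), and THI2.1, a thionin gene induced by jasmonate, of 0.04. Of 19 auxin and cytokinin response genes 4 were tested, 2 of them at an unadjusted p under 0.05 (12.0% of all probe sets), and their median was -0.02. GH3.3, which joins auxin to amino acids, gave 255 and 262 in Col-0 and 374 and 482 in se-1 (0.68, adjusted p = 0.147). ARR15, a response regulator induced by cytokinin, gave 580 and 509 in Col-0 and 346 and 460 in se-1 (-0.43, adjusted p = 0.377). WES1, another GH3 enzyme gene, had a log2 change of -0.23.

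Families were matched by gene symbol, identifier and synonyms only, so members named otherwise were left out of the family counts. CYP71B22 was the called gene among 15 tested probe sets of the cytochrome P450 family, and the other 14 ran from -0.34 to 0.35. The pattern also took in the cyclophilins CYP71, CYP59 and SQN, which share the letters of the symbol. The other CYP71B genes tested lay on both sides of 0, from -0.34 for CYP71B6 to 0.35 for CYP71B38. Of 43 tested proteases and inhibitors matched by name scpl31 was called, and of 23 UDP-glycosyltransferases UF3GT. Their medians were -0.01 and -0.02. The protease gene ATSBT5.2, a called rise described above, was not among the 43.

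Of 19 tested glycosyl hydrolase genes matched by name 2 fell, with a median of -0.09. Of these 19, 7 had an unadjusted p under 0.05, beside 12.0% of all probe sets. The match left out PYK10, a called fall, and the run from AT2G43590 to AT2G43620, called higher. GH9B13, a cellulase of the plant cell wall, gave 1488 and 1539 in Col-0 and 694 and 786 in se-1 (-1.02, adjusted p = 0.0225). BGLU15, a beta-glucosidase, gave 169 and 155 in Col-0 and 84.5 and 77.0 in se-1 (-0.88, adjusted p = 0.0436). The beta-glucosidase genes BGLU46 and BGLU47 had log2 changes of -0.95 and -0.78 and did not pass the test (adjusted p of 0.236 and 0.228). PME61, a pectin methylesterase of the cell wall, gave 111 and 102 in Col-0 and 208 and 222 in se-1 (0.91, adjusted p = 0.0275). The other 2 tested genes matched by a pectin enzyme name had log2 changes of 0.07 and -0.26. Of 17 tested expansin and xyloglucan enzyme genes 0 were called by limma and 1 had an unadjusted p under 0.05, that of EXPA4 (0.67, adjusted p = 0.0890).

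SAPX, the stromal ascorbate peroxidase that removes hydrogen peroxide in chloroplasts, gave 454 and 523 in Col-0 and 270 and 240 in se-1 (-0.90, adjusted p = 0.0178). TAPX, its counterpart on the thylakoid membrane, had a log2 change of -0.23 and overlapping groups. Among 5 lectin genes, 4 of which had an unadjusted p under 0.05 (12.0% of all probe sets), the jacalin-related JAL23 rose. It went from 146 and 232 to 421 and 393 (1.08, adjusted p = 0.0475). The related JAL22, JAL34 and JAL33 had log2 changes of -0.74, -0.57 and -0.43 and did not pass the test (adjusted p of 0.104, 0.216 and 0.344). The calls of GH9B13, BGLU15, PME61 and SAPX ended whichever array was left out, and that of JAL23 when any array other than Col-0 replicate 2 was. Each also ended under at least 1 other setting, and the adjusted p where they ended lay between 0.0554 and 0.497. Of the other families, 11 MADS-box probe sets, 9 glutathione transferases, 6 WRKY and 6 bHLH genes were tested with 0 called by limma, and 2, 0, 0 and 0 had an unadjusted p under 0.05.

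The named genes were also read in the other genotypes, against which se-1 was tested directly. Over all probe sets, 537 of 15922 (3.37%) differed between se-1 and ago1-27, and 57 (0.358%) between se-1 p35S::MIR156 and se-1. Of the 47 named called genes 28 differed from ago1-27, 16 higher and 12 lower in se-1, beside 2.19% higher and 1.19% lower of all. From se-1 p35S::MIR156 10 differed, 7 higher and 3 lower in the transgenic line, beside 0.22% and 0.138% of all. These comparisons share the se-1 arrays on which the genes were chosen, so the counts are a description. Under the alternatives and without each Col-0 or se-1 array in turn, 18 of the 28 and 2 of the 10 calls held, and the adjusted p of the others where they ended lay between 0.0523 and 0.292.

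CYP71B22 gave 654 and 523 in ago1-27 and 62.9 and 54.5 in se-1 p35S::MIR156. Its difference between se-1 and ago1-27 was -0.43 (SE 0.283, adjusted p = 0.509), and se-1 p35S::MIR156 was lower than se-1 by a log2 change of -2.58 (adjusted p = 0.000491), close to the Col-0 values. COR15A lay at 1725 and 2226 in ago1-27 and 531 and 927 in se-1 p35S::MIR156, which differed from se-1 by -1.26 (adjusted p = 0.0436). That call ended whichever of the 4 Col-0 and se-1 arrays was left out and under 5 other settings (adjusted p between 0.0523 and 0.288). AT2G43620 gave 107 and 89.6 in se-1 p35S::MIR156, a difference of -1.31 from se-1 (adjusted p = 0.0120), which ended as a call when se-1 replicate 2 was left out or dim probe sets were kept (adjusted p of 0.118 to 0.185). AT2G43600 gave 106 and 144 there, a difference of 0.01 from se-1 (adjusted p = 0.997).

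Falls that differed between the se-1 lines were ECS1, ZW9, AT2G25510, AT3G19550, UF3GT, PYK10 and AT2G36885, all higher in se-1 p35S::MIR156 than in se-1. ECS1 gave 1371 and 885 in the transgenic line (difference 2.05, adjusted p = 0.00302), and UF3GT gave 238 and 199 (1.49, adjusted p = 0.00824), both close to the Col-0 values. ZW9 gave 361 and 305, above both Col-0 arrays (difference from se-1 of 1.95, adjusted p = 0.000885). With dim probe sets kept the calls of these genes other than ZW9 ended. Those of UF3GT, AT3G19550 and AT2G36885 also ended when se-1 replicate 2 was left out, that of AT3G19550 when se-1 replicate 1 was, and that of PYK10 when any array other than se-1 replicate 2 was (adjusted p up to 0.235). The labels do not say whether the transgenic plants are 1 line or several, so an effect of miR156 and one of the line cannot be told apart.

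Several genes that fell in se-1 were bright in ago1-27. AT1G19960 gave 1279 and 1342 in ago1-27, above both Col-0 arrays, and se-1 was lower than ago1-27 by a log2 change of -3.08 (adjusted p = 4.89e-06). AT5G48490 gave 358 and 430 in ago1-27 (difference -3.09), and AT5G62360 gave 727 and 636 (difference -2.54). PYK10 and AT5G59330 lay the other way, at 211 and 123 and at 3.82 and 4.99 in ago1-27, with se-1 higher by 2.15 and 3.46 (adjusted p of 0.000144 and 5.14e-07). The AT5G59330 signals in ago1-27 were within background, so its difference depends on the constant added. Among the rises, scpl31 gave 171 and 154 in ago1-27, below both Col-0 arrays, and se-1 was higher by 2.38 (adjusted p = 4.89e-06). AT4G18280 gave 216 and 223 there, with se-1 higher by 2.03. These 7 differences from ago1-27 held without each Col-0 or se-1 array in turn and under the other settings that tested them. Other named genes changed in ago1-27 against Col-0 in the same direction as in se-1. Among them were AT2G43590 (log2 change 1.48), AT1G30515 (-1.04) and GH9B13 (-0.90), with limma adjusted p of 0.0094, 0.025 and 0.037.

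**Figure D5:**
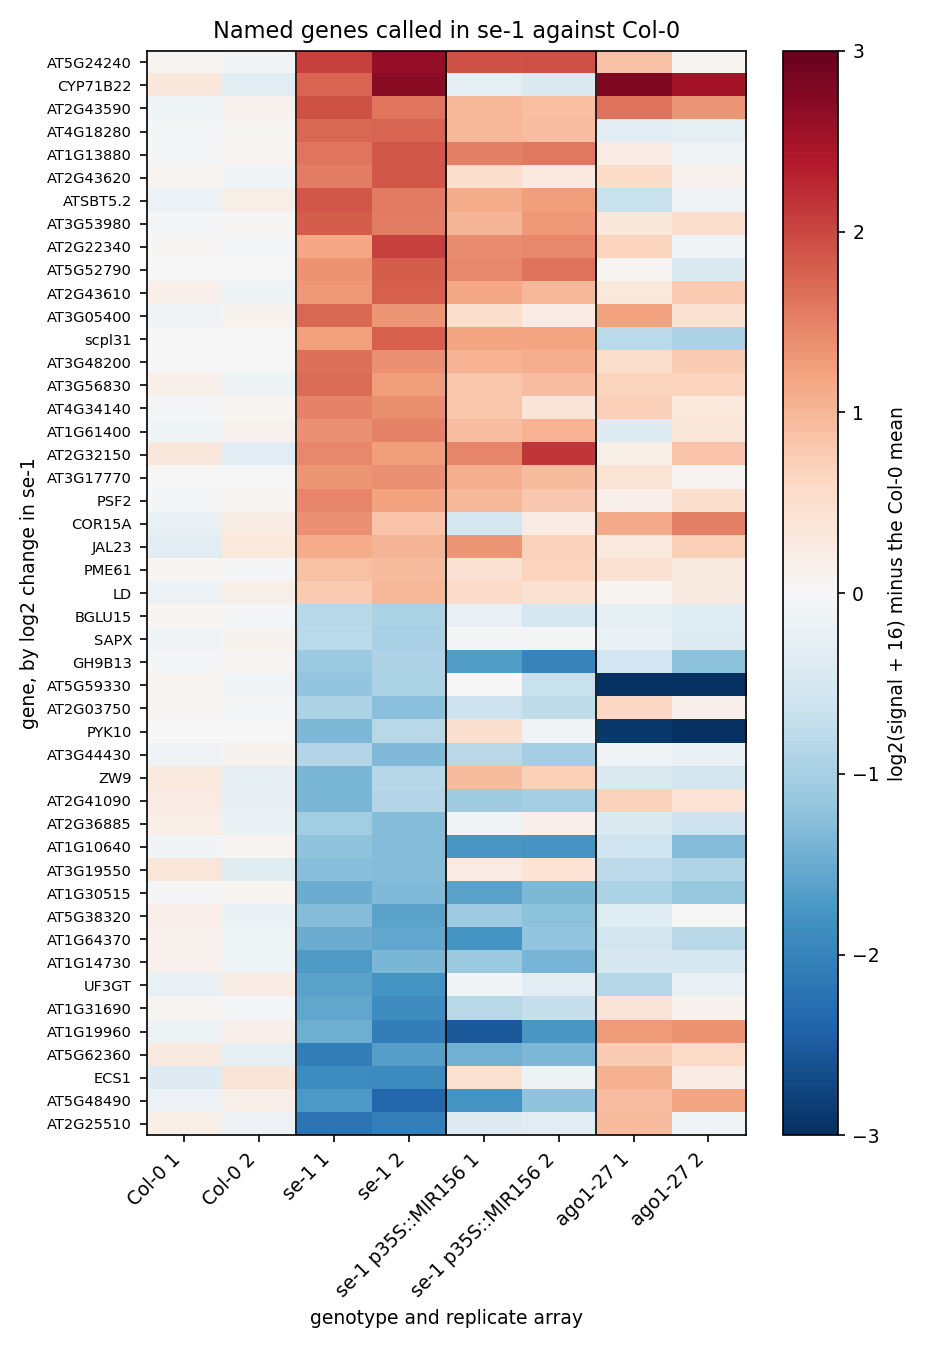
Log2(signal + 16) of the 47 named called genes on each of the 8 arrays, minus the mean of the 2 Col-0 arrays, ordered by the change in se-1, with red for higher and blue for lower and the scale ending at 3 in either direction. CYP71B22 is red in se-1 and ago1-27 and pale in se-1 p35S::MIR156, and PYK10 is a darker blue in ago1-27 than in se-1.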

How the data were processed

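RNA was hybridized to Affymetrix ATH1 arrays, 1 per sample. The authors deposited probe set signals as linear intensity, made with GCOS, per the submitters' processing notes; its version and signal algorithm are not given in the sources used here. The values come without detection calls, and 2 arrays a group limit the precision. Genotype labels gave the groups.

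Tests left out the 64 control probe sets and the dimmest 30% of the rest (lowest means across the 8 arrays). On log2(signal + 16), limma 3.58.1 (R 4.3.3) estimated a mean for each genotype from all 8 arrays at once (lmFit, eBayes with a trend; 4 residual and 11.27 prior degrees of freedom). Tests are two-sided, with Benjamini-Hochberg adjustment within each of 5 comparisons, and every adjusted p is from this fit. Log2 changes understate those of dim probe sets. Where both arrays of a group lay within the highest of the bacterial control signals, a fold is at least the ratio of the geometric mean of the other group's signals to that of these control signals.

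The annotation table pairs 13513 probe sets with 1 gene and 503 with several, and 8730 are unlisted; of the former, 13436 matched TAIR10.1, used for names and gene order. No sequence tables were used here. Named were the 20 largest rises and 20 largest falls with 1 gene and non-overlapping arrays, each called list member, up to 6 per family and up to 3 members of a list without calls, SE, and 2 rises and 2 falls without a listed gene. The members and lists were chosen with earlier results of these data known. Families were matched by gene symbol, identifier and synonyms. In simulated data for this comparison (15922 probe sets, 200 changed) the fit found 74.3% of the changes of 2-fold and 99.3% of those of 4-fold, and 6.37% of its calls were false. The alternatives tried were other pseudocounts, filters, normalization and eBayes settings, the 2 genotypes alone, a replicate block, and leaving out each array.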

Additional observations from a re-analysis of the deposited data

How the results depend on the processing

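With dim probe sets kept, the calls fell from 173 to 68 in se-1 against Col-0, from 537 to 249 against ago1-27 and from 57 to 15 between the se-1 lines. Of the 47 named called genes 26 were then called, and the lists and families held 5 called members, 4 of the 10 in the text and the dim gene scpl28. Without a trend in eBayes the se-1 lines gave 25 calls and the lists 3. With only the 2 genotypes in the fit, se-1 against ago1-27 gave 263. Leaving out 1 array gave 32 to 89 calls in se-1 against Col-0, 257 to 433 against ago1-27, 25 to 45 between the se-1 lines, 18 to 30 named genes and 3 to 4 list members. The direction turned only for THI2.1, which was not called: -0.007 with quantile normalization, -0.046 without Col-0 replicate 1 and -0.092 without se-1 replicate 2, within a range over left-out arrays of -0.092 to 0.168. Calls of named genes held under the replicate block, and every other setting except leaving out the dimmest 50% ended at least 1. The cause of these differences was not tested.

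With the replicate number as a block, 187 probe sets were called. The labels do not say that the numbers pair the arrays, and the deviations of the first replicates in se-1 and Col-0 correlated at -0.206 across probe sets. With the 2 genotypes alone and chosen after seeing the data, the replicate block gave 374 calls and the crossed pairing 615. Both fits have fewer residual degrees of freedom than the main fit, and the labels give neither pairing. Their counts are therefore not comparable with the count of the main fit.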
